A study of Mus musculus with 88 samples.

Results

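A set of 10 genes known as markers of the choroid plexus or of the meninges, the secretory tissue of the brain ventricles and the membranes around the brain, was followed through the RNA of the mouse nucleus accumbens. The 10 genes were chosen by name from all 55487 genes of the count table, and all 10 passed the filter on low counts that left 25420 genes for testing. The choroid plexus members were Ttr, Folr1, Kcnj13, Kl and Clic6, and the meningeal members were Myoc, Slc13a4, Slc6a13, Slc22a6 and Slc47a1. Neither tissue is part of the nucleus accumbens, so what was described is how far their transcripts reached each library, whether they moved together, and how they were spread over the 12 groups of the study.

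The choroid plexus is a sheet of epithelium that hangs in the ventricles and makes cerebrospinal fluid by pumping ions across its apical side. The meninges are layers of fibroblasts and barrier cells on the brain surface, which follow large vessels and carry transporters that clear anions, cations and neurotransmitters from the fluid. Both lie outside the neural tissue, and their transcripts are used as signs of what a dissected piece contained besides it. Some of the same genes are also transcribed by other cells, Kl by neurons among them.

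The RNA was taken 6 days after surgery from the nucleus accumbens of mice backcrossed to C57BL/6, females and males. Every mouse, controls included, had received herpes simplex vectors for dCas9-CREB(S133D), a Cas9 that cannot cut joined to an always active form of the transcription factor CREB, and for a guide RNA. The targeted groups carried guide g11 to Fosb, and the control groups carried gNT, a guide to no target. D1-Cre mice given a Cre-dependent vector made the F_D1 arm (6 targeted and 8 control libraries) and the M_D1 arm (7 and 4). D2-Cre mice given the Cre-dependent vector made the F_D2 arm (8 and 8) and the M_D2 arm (7 and 8), and D1-Cre mice given a vector that does not need Cre made the F_D1-D2 arm (12 and 8) and the M_D1-D2 arm (4 and 7). Whole dissected tissue was used, which mixes cells with and without the vector, and the labels give no age. Levels are CPM, counts scaled to a common library size, with TMM scaling, which discounts a few very abundant genes, and libraries are called by the numbers in their titles.

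Across the 87 libraries total counts ran from 12430387 to 69568367, with a median of 31393804. In 4 Fosb-guide libraries (19610, 17907, 18919 and 18432) 10 genes held over 90% of the counts, which left 15 to 23 counts over all 10 members, against at least 117 and a median of 956 in the other libraries. Sequencing batch 2 held 9 libraries, all of the M_D2 arm, against 78 in batch 1. The medium spiny neuron markers that define the labelled tissue were abundant, with medians of 556 CPM for Penk, 335 CPM for Ppp1r1b and 242 CPM for Drd1. Fosb, the targeted gene, averaged 9.70 ± 2.38 CPM in F_D1-targeted and 7.29 ± 1.51 CPM in F_D1-control libraries, 6.29 ± 1.32 in M_D1-targeted and 4.51 ± 0.389 in M_D1-control, and 6.56 ± 2.81 in F_D2-targeted and 7.71 ± 1.86 in F_D2-control (SD). It averaged 6.31 ± 1.15 in M_D2-targeted and 9.52 ± 3.52 in M_D2-control, 6.89 ± 2.53 in F_D1-D2-targeted and 6.71 ± 1.93 in F_D1-D2-control, and 10.7 ± 5.04 in M_D1-D2-targeted and 7.25 ± 3.36 in M_D1-D2-control. Libraries 18749 (M_D1-D2-targeted) and 18722 (M_D1-targeted) were the most alike pair of all libraries in their counts, closer than any pair within a group. They differed by more than sampling noise, and without both 0 members passed in M_D1. Library 17376 (F_D1-targeted) went against its label on sex-linked genes, and without it 0 members passed in F_D1, as with it.

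The choroid plexus members split by level. Ttr and Folr1 were near the detection limit in most libraries, with a median of 2 counts each. Kcnj13 was low, with a median of 11 counts and no count in 5 libraries, while Kl and Clic6 were counted in every library. Per kb of exon, the scale on which genes can be set beside each other, the median level was 2.82 CPM per kb for Clic6, 0.693 for Kl, 0.228 for Kcnj13, 0.0577 for Ttr and 0.0213 for Folr1. The order at the top was another one: Ttr reached 19.4 CPM per kb in its highest library, against 5.67 for Clic6.

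Ttr (ENSMUSG00000061808.4, on chromosome 18) encodes transthyretin, the carrier of thyroxine and retinol that the choroid plexus epithelium secretes into the cerebrospinal fluid. Its level was 23.1 CPM (749 counts) in M_D1-D2-control library 19511, 20.9 CPM (609 counts) in F_D1-control 16585, 5.41 CPM (209 counts) in F_D1-D2-control 19750 and 4.10 CPM (115 counts) in M_D1-targeted 18130. No other library passed 1.61 CPM, and that one was a concentrated library. The median over 87 libraries was 0.0684 CPM, a median of 2 counts, so the highest library stood 337-fold above it. Ttr had no count in 16 libraries. For the 14 of these that were not concentrated, a count of 0 allows up to 0.0327 to 0.650 CPM (3 counts, per library).

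By group, Ttr levels in F_D1-targeted libraries ran from 0.0256 over a median of 0.0413 to 0.0684 CPM, and in F_D1-control libraries from 0 over 0.0834 to 20.9 CPM. In M_D1-targeted libraries they ran from 0 over 0.0991 to 4.10 CPM, while M_D1-control libraries had 0, 0.0282, 0.0476 and 0.969 CPM. F_D2-targeted libraries had a median of 0 CPM and a highest level of 0.559, against a median of 0.0608 and a highest of 0.226 CPM in F_D2-control libraries. Every one of these pairs of groups overlapped. M_D2-targeted libraries ran from 0 over 0.0445 to 0.188 CPM and M_D2-control libraries from 0 over 0.0344 to 0.177 CPM. F_D1-D2-targeted libraries ran from 0.0436 over 0.202 to 1.61 CPM and F_D1-D2-control libraries from 0 over 0.0982 to 5.41 CPM. M_D1-D2-targeted libraries had 0.0478, 0.0626, 0.140 and 0.990 CPM, and M_D1-D2-control libraries ran from 0 over 0.0820 to 23.1 CPM. The high levels belonged to single libraries of 4 groups, and the medians of all 12 groups stayed between 0 and 0.202 CPM.

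**Figure D1:**
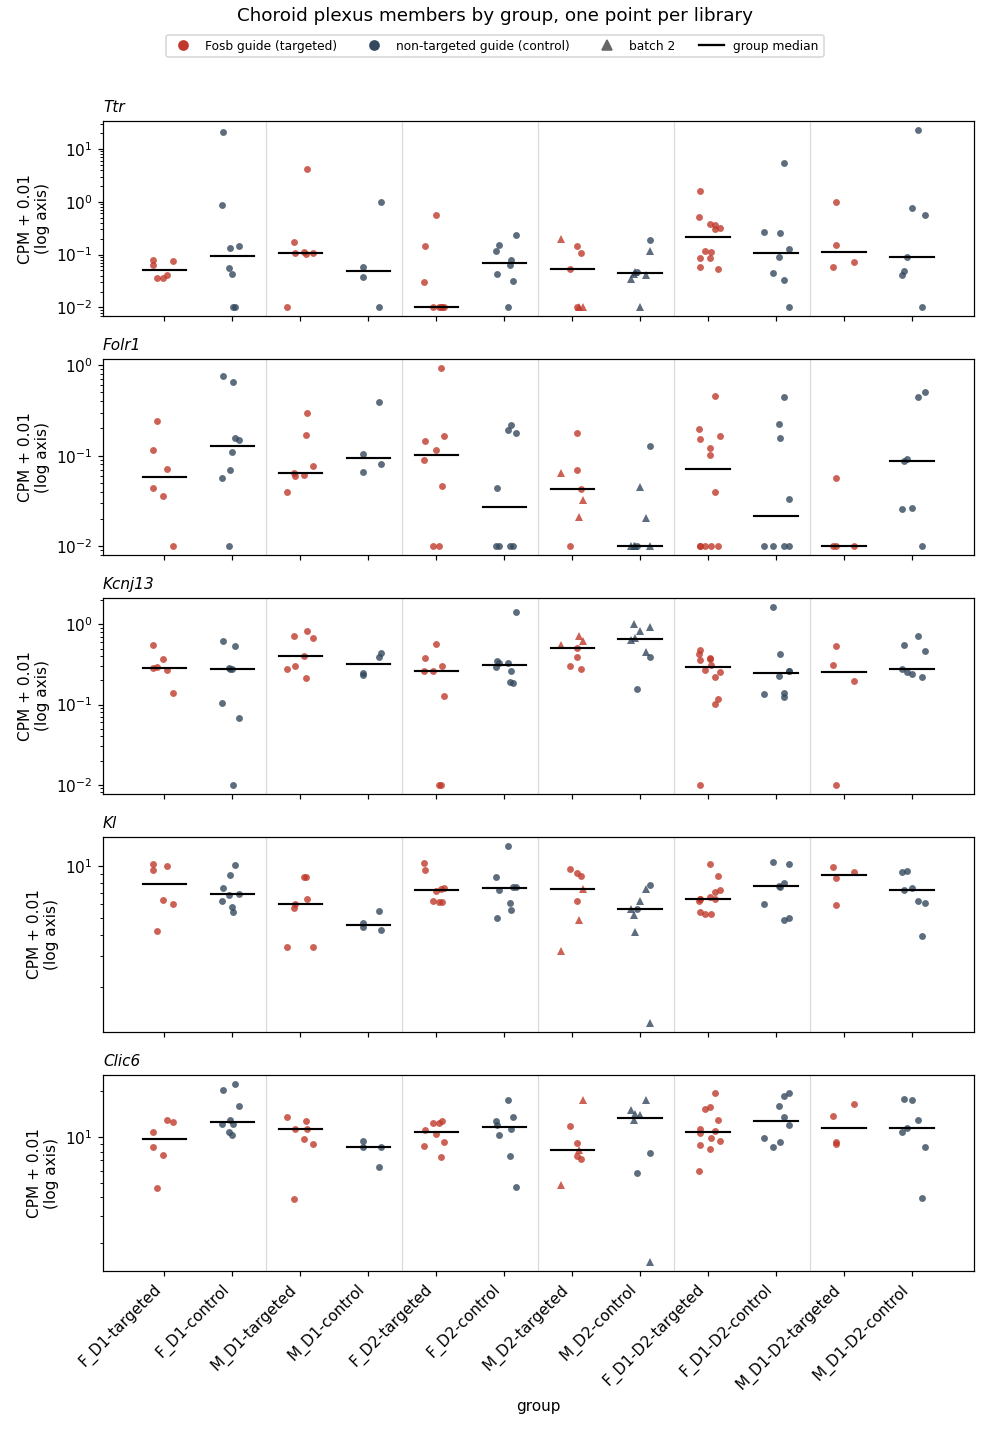
Level of each choroid plexus member (CPM, log axis) in every library, by group, with targeted groups left of their controls, triangles for batch 2 and bars for group medians. Ttr is above 2 CPM in 4 libraries of 4 different groups. Folr1 lies near the detection limit, Kcnj13 is low, and Kl and Clic6 hold one band through all 12 groups.

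Folr1 (ENSMUSG00000001827.12, chr7:101858331-101870788, minus strand) encodes the folate receptor that carries folate across the choroid plexus epithelium. Its median was 0.0489 CPM, it had no count in 27 libraries, and its highest level of 0.914 CPM in library 18432 rests on 1 count of a concentrated library. In the 4 Ttr-high libraries Folr1 had 0.431 CPM (19511), 0.754 (16585), 0.440 (19750) and 0.285 (18130), all above its median. Kcnj13 (ENSMUSG00000079436.3, chr1:87386363-87394729, minus strand), an apical potassium channel of the choroid plexus, had a median of 0.289 CPM and reached 1.64 CPM in F_D1-D2-control 19762 and 1.44 CPM in F_D2-control 17906. These are the libraries highest in the meningeal genes, not in Ttr. All 1270 exon bases of Kcnj13 lie within Gigyf2 on the other strand, 623 of them over its exons, and no source used here gives the strand setting of the counting, so Kcnj13 and Gigyf2 reads cannot be told apart. Across libraries the levels of the pair had a rho of 0.04, and of 0.35 in batch 1 (n = 78). Folr1 has 1558 of its 2297 exon bases within Anapc15 on the other strand, 0 of them over Anapc15 exons. The strand setting leaves those reads open too, and Folr1 and Anapc15 levels had a rho of 0.04.

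Kl (ENSMUSG00000058488.7, chr5:150952607-150993817, plus strand) encodes alpha-klotho, a co-receptor for an endocrine fibroblast growth factor. It ran from 1.22 over 6.47 to 13.1 CPM, with a coefficient of variation of 29.4%. Clic6 (ENSMUSG00000022949.9, chr16:92485736-92541243, plus strand), a member of the chloride intracellular channel family, ran from 1.496 over 11.03 to 22.2 CPM, with a coefficient of variation of 35.5%. In the Ttr-high libraries 19511, 16585, 19750 and 18130 Kl had 6.28, 7.402, 7.95 and 6.45 CPM, near its median. Clic6 had 12.9, 20.4, 18.6 and 11.3 CPM there, well above its median in 16585 and 19750 and closer to it in the other two. Both were lowest in M_D2-control library 3631 of batch 2, at 1.22 CPM for Kl and 1.496 CPM for Clic6, where the cortical neuron marker Slc17a7 stood at 764 CPM, its highest level of all libraries, against a median of 24.8 CPM.

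The meningeal members were low in most libraries and high together in a few. Median levels were 0.801 CPM per kb for Slc6a13, 0.288 for Myoc, 0.246 for Slc13a4, 0.137 for Slc47a1 and 0.119 for Slc22a6. Myoc (ENSMUSG00000026697.10, chr1:162639155-162649693, plus strand), the secreted glycoprotein myocilin, varied most, with a coefficient of variation of 274% and a highest level of 42.8 CPM, 71.6-fold above its median of 0.598 CPM. Slc13a4 (ENSMUSG00000029843.4, chr6:35267957-35308131, minus strand), a sodium-coupled sulfate transporter, ran from 0 over 1.11 to 19.1 CPM. Slc6a13 (ENSMUSG00000030108.14, chr6:121300227-121337733, plus strand), a GABA and taurine transporter, ran from 0 over 2.33 to 16.7 CPM. Slc22a6 (ENSMUSG00000024650.5, chr19:8618039-8628299, plus strand), an organic anion transporter, ran from 0 over 0.472 to 10.1 CPM, and Slc47a1 (ENSMUSG00000010122.14, chr11:61343401-61378345, minus strand), an organic cation extruder, from 0 over 0.462 to 11.5 CPM. Every 0 of Myoc, Slc13a4, Slc6a13 and Slc22a6 fell in a concentrated library, and Slc47a1 had 1 more, library 19211, where 0 counts allow up to 0.0939 CPM. Of the 2074 exon bases of Myoc 1403 lie within Myocos on the other strand, 93 of them over Myocos exons. The limit of the strand setting given for Kcnj13 holds for these bases as well.

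Promoter sequences are shown for the 4 meningeal members that the sequence table holds, since they moved together across libraries. They are credited to RefSeq on GRCm38.p6, run from 250 bases before to 50 after the gene start on the gene's own strand, and read 5′ to 3′. Capitals mark TAATCC or its reverse complement GGATTA, the core that Otx-type homeodomain proteins recognise. Otx2, the Otx protein of the choroid plexus, was itself counted at a median of 1.11 CPM.
Myoc, chr1:162638900-162639199, plus strand: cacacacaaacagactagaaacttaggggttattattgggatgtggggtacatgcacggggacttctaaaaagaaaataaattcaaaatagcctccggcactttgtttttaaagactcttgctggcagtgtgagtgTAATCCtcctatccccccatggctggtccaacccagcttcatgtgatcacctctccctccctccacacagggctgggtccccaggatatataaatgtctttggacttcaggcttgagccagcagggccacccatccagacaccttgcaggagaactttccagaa
Slc13a4, chr6:35308077-35308376, minus strand: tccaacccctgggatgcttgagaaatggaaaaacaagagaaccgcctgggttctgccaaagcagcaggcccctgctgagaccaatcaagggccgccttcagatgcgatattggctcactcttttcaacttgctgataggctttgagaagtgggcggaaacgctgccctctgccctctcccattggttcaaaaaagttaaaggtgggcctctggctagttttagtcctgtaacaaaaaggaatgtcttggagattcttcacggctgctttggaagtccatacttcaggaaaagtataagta
Slc6a13, chr6:121300038-121300337, plus strand: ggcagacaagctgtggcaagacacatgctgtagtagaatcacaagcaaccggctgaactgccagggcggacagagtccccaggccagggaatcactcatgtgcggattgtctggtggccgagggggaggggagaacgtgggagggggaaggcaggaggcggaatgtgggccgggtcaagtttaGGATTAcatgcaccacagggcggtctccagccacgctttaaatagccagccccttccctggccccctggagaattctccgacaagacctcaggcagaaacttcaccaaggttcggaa
Slc22a6, chr19:8617746-8618045, plus strand: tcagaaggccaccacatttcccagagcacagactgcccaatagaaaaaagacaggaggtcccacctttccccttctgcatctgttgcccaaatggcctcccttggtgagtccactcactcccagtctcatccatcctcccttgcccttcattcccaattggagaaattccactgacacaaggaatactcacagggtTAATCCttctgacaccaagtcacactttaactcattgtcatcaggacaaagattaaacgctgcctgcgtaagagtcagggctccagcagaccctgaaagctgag

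The motif was present once in Myoc, Slc6a13 and Slc22a6, at 114, 67 and 54 bases before the start, and absent from these letters of Slc13a4. Kcnj13 and Kl, the choroid plexus members with a sequence, had no match to this motif either. TAATCC is found on either strand in 7.06% of 32851 promoters of this length. CATTCC, the core that TEAD factors recognise (reverse complement GGAATG), was present in Slc13a4, Slc6a13, Slc22a6 and, of the choroid plexus members, Kcnj13, and in 14.7% of all promoters. TAAACA, a forkhead core (reverse complement TGTTTA), was present in Kcnj13 alone of the 6 members with a sequence and in 13.4% of promoters. TGACGTCA, the palindromic site that CREB recognises, was in none of the 6 and in 1.79% of promoters. No match of one motif overlapped a match of another in these windows, and a match describes the letters and no binding.

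**Figure D2:**
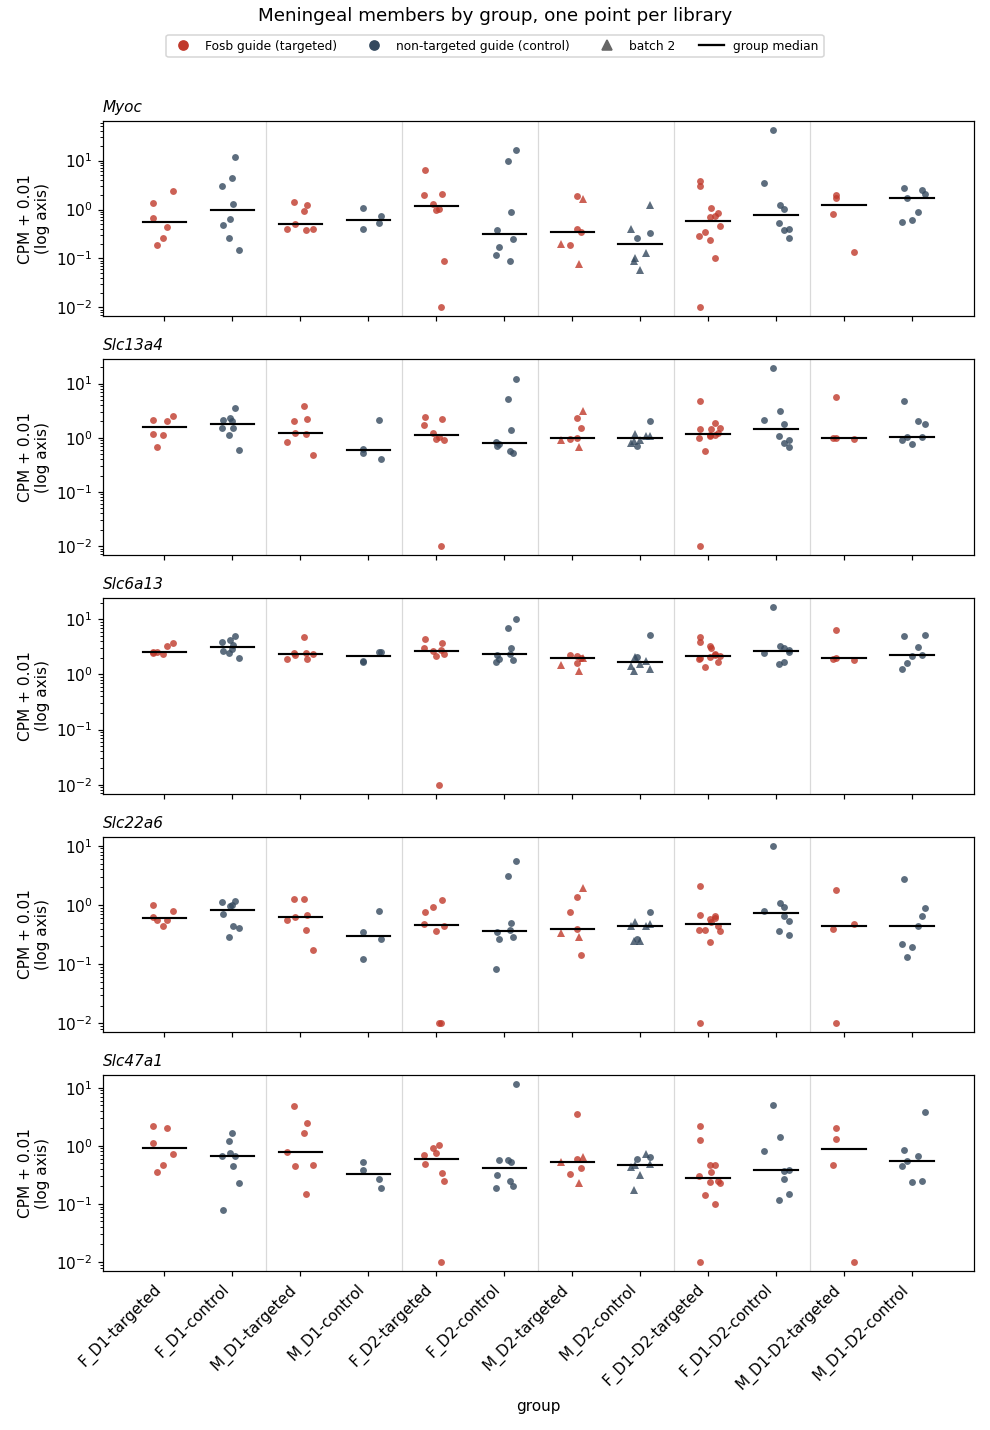
Level of each meningeal member (log axis) in every library, by group, with targeted groups left of their controls. The vertical axis shows CPM + 0.01, so a level of 0 stands at 0.01, triangles mark batch 2 and bars mark group medians. The highest point of each gene is female control library 19762 or 17906, and the group medians of Myoc run from 0.187 CPM in M_D2-control to 1.68 CPM in M_D1-D2-control.

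The 3 libraries below stood highest in the meningeal members as a set, all of them female controls. Their mean log2 CPM was 3.88 (19762), 3.40 (17906) and 1.88 (17910). The next were F_D1-D2-targeted 19482 at 1.63, F_D1-control 19755 at 1.51 and M_D1-D2-control 19512 at 1.47, close to 17910. F_D1-D2-control 19762 had 42.8 CPM of Myoc, 19.1 of Slc13a4, 16.7 of Slc6a13, 10.1 of Slc22a6 and 4.9997 of Slc47a1. F_D2-control 17906 had 16.5 CPM of Myoc, 12.3 of Slc13a4, 10.03 of Slc6a13, 5.54 of Slc22a6 and 11.5 of Slc47a1. F_D2-control 17910 had 9.66, 5.11, 6.90 and 3.10 CPM of Myoc, Slc13a4, Slc6a13 and Slc22a6 but 0.566 CPM of Slc47a1, close to that gene's median. The summed level of the 5 genes ran from 2.38 to 93.7 CPM over all libraries, with a median of 4.94.

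Further meningeal genes, a list of 22 of which 21 were tested, were also high in those libraries. All 21 were above their 87-library median in 19762, with a median ratio of 4.08, and 12 of them had their highest level of the series there. In 17906 all 21 were above their median, with a median ratio of 3.004, and in 17910 19 of 21, with a ratio of 1.78. Over all genes tested, 50.04%, 53.3% and 53.9% were above their medians in these libraries. Fmod, a small proteoglycan of connective tissue, had 21.3, 8.62 and 7.10 CPM in 19762, 17906 and 17910, against a median of 1.42 CPM. Aldh1a2, the retinoic acid enzyme of meningeal fibroblasts, had 14.9, 10.4 and 4.43 CPM, against 2.66, and the amino acid transporter Slc6a20a had 19.6, 13.6 and 8.28 CPM, against 3.57.

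Markers of other tissue were also away from their medians in these libraries, each in its own way. Of 12 cortical glutamatergic genes 9 were above their median in 19762, 10 in 17906 and 11 in 17910. In 17906 their median ratio was 12.96 and Slc17a7 stood at 585 CPM, against 113 in 19762, 67.7 in 17910 and a median of 24.8. Of 12 medium spiny neuron genes 4, 0 and 12 were above their median in 19762, 17906 and 17910. The part of adjoining tissue in the meningeal levels was not tested.

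The 4 Ttr-high libraries were read against the same lists. Of 18 further choroid plexus genes tested, 15 were above their 87-library median in 16585, 14 in 18130, 12 in 19511 and 11 in 19750. The prolactin receptor Prlr, abundant in choroid plexus epithelium, had 18.7 CPM in 19511, 12.95 in 16585, 4.13 in 18130 and 0.518 in 19750, against a median of 0.954. Otx2 had 3.48, 4.59, 2.17 and 1.403 CPM in the same order, against 1.11, and the secreted antagonist Sostdc1 had 1.94, 2.50, 0.606 and 0.181, against 0.166. In 19511 and 16585 these genes stood well above their medians, while in 19750 Ttr was high with Prlr below its median and Sostdc1 close to it. Kcne2, Cldn2 and Dpep1 of the lists did not pass the filter.

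Cells that line or border the ventricles were also counted there. Of 12 ependymal genes 10 were above their median in 16585, 10 in 19750, 9 in 19511 and 9 in 18130, and of 10 genes of septum and pallidum 10, 7, 10 and 6. Oligodendrocyte genes were above their median in 7 of 7 cases in 16585, 6 in 19750, 5 in 19511 and 7 in 18130, with median ratios of 1.11 (19750) to 1.53 (16585). Medium spiny neuron genes were above their median in 0 of 12 cases in 16585, 19511 and 18130 and in 12 of 12 in 19750. In 19511 their median ratio was 0.304, and their summed level of 950 CPM was the lowest of all libraries, against a median of 2981. Over all genes tested, 51.0%, 50.8%, 48.6% and 52.8% were above their medians in 16585, 19750, 19511 and 18130. Whether these markers account for the Ttr levels was not tested. In bulk tissue, fewer cells of a type and less RNA per cell cannot be told apart.

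**Figure D3:**
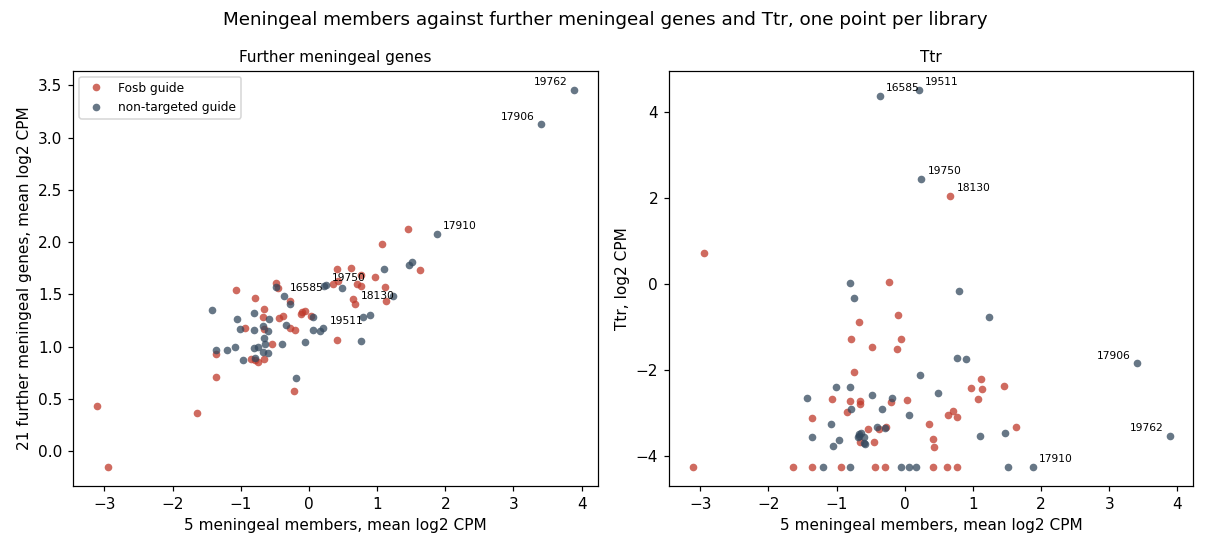
Mean log2 CPM of the 5 meningeal members (horizontal axis) against that of the 21 further meningeal genes (left) and against the log2 CPM of Ttr (right), 1 point per library, coloured by guide. Libraries 19762 and 17906 lie far right in both panels, and 17910 lies close to the next libraries. The 4 Ttr-high libraries lie in the middle of the horizontal axis.

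The meningeal members moved together across libraries, while 1 of 6 pairs of choroid plexus members other than Ttr passed the test. Spearman's rho was computed over 87 libraries, with 100000 permutations for each pair (smallest p 1e-05) and Benjamini-Hochberg adjustment over all 45 pairs of the 10 members. The high Ttr levels form a separate cluster of 4 libraries, so the 36 pairs without Ttr are given first. The 10 meningeal pairs had a median rho of 0.60, from 0.34 to 0.80, and all 10 passed an adjusted p of 0.05. The 6 choroid plexus pairs had a median rho of 0.06, from −0.14 to 0.25, and 1 passed. Of the 20 pairs between the kinds, with a median rho of 0.14, 7 passed. The share of pairs that would pass over all genes tested was not computed, so these counts cannot be set against it. With Ttr, the 10 choroid plexus pairs had a median rho of 0.03, and 1 passed by rho and 2 by Pearson's r. Ttr and Folr1 had r 0.37 (adjusted permutation p 0.00204) and rho 0.19 (adjusted 0.185), and r 0.07 without the 4 Ttr-high libraries. Without the 3 libraries highest in the meningeal members, the meningeal pairs had a median rho of 0.56.

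Slc13a4 and Slc22a6, the sulfate and the organic anion transporter, were the closest pair. Pearson's r of log2 CPM was 0.82 (permutation p 1e-05, adjusted 5e-05) and rho was 0.80 (permutation p 1e-05, adjusted 6.43e-05). Without the 2 libraries farthest from the median r was 0.79, and rho was 0.80 in batch 1 and 0.80 in batch 2. Myoc and Slc13a4 had r 0.74 and rho 0.68, with adjusted permutation p values of 5e-05 and 6.43e-05. Slc6a13 and Slc47a1 were the loosest meningeal pair, with r 0.26 and rho 0.34 (adjusted permutation p 0.0419 and 0.00502), and r was 0.11 without the 3 libraries highest in the meningeal members. All 87 libraries share the mice's dissection and library preparation as sources of variation, and the counts behind low values are few.

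**Figure D4:**
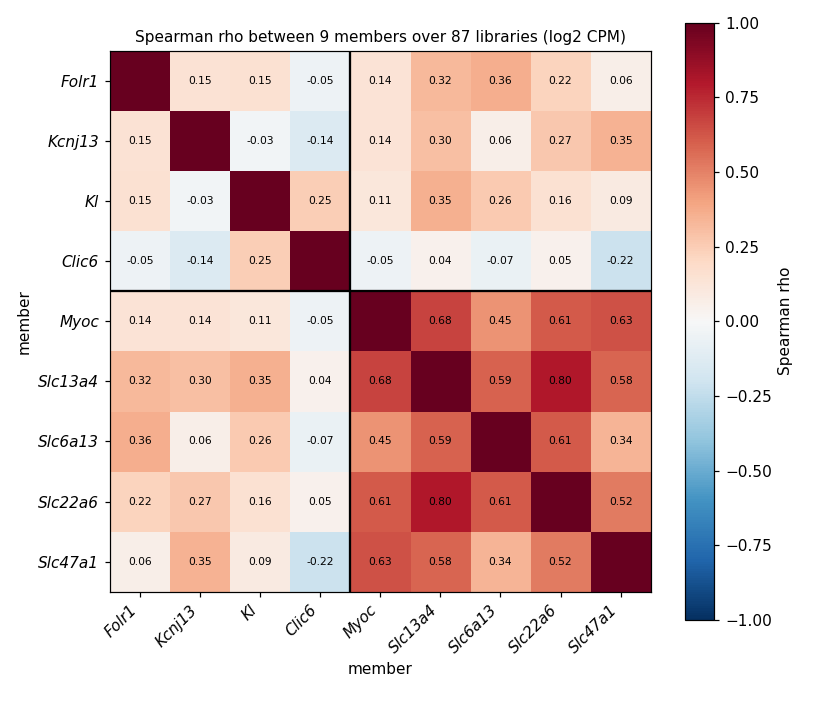
Spearman's rho across 87 libraries for the 36 pairs of the 9 members other than Ttr, with lines between the choroid plexus and the meningeal members. The block of 10 meningeal pairs runs from 0.34 to 0.80, while the 6 choroid plexus pairs run from −0.14 to 0.25.

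The choroid plexus pair that passed by rho was Kl and Clic6, with r 0.49 and rho 0.25 (adjusted permutation p 1.35e-04 and 0.0498). Without the 2 farthest libraries r was 0.28 and rho 0.20. Pairs with Folr1 rest on few counts, and its highest rho with a meningeal member was 0.36, with Slc6a13 (r 0.27). The 7 pairs between the kinds that passed by rho were Folr1 with Slc13a4 and Slc6a13, Kl with Slc13a4 and Slc6a13, and Kcnj13 with Slc47a1 (rho 0.35), Slc13a4 (0.30) and Slc22a6 (0.27). Kcnj13, which passed in 3 of its 5 such pairs, was also highest in libraries 19762 and 17906. Its rho with Slc47a1, Slc13a4 and Slc22a6 was 0.45, 0.43 and 0.40 in batch 1. In the 9 libraries of batch 2 the values were −0.78, −0.28 and −0.42.

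Mean log2 levels of the 5 meningeal members followed the 21 further meningeal genes, with r 0.84 and rho 0.72 (adjusted permutation p 1.5e-04 for both, over 30 relations of the member means with other lists and measures). Without the 2 farthest libraries r was 0.77 and rho 0.70. In batch 1 the values were 0.85 and 0.71, and in the 9 libraries of batch 2 they were 0.61 and 0.20. The mean of the choroid plexus members had r 0.47 and rho 0.54 with 12 ependymal genes (adjusted permutation p 1.5e-04 for both). With 18 further choroid plexus genes it had r 0.39 and rho 0.21 (adjusted permutation p 0.00337 and 0.0882), and the difference between these relations was not tested. Without the 4 Ttr-high libraries the correlation with the further choroid plexus genes was r 0.21 and rho 0.13.

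Clic6 levels correlated with the medium spiny neuron genes, 1 of 6 lists out of 13 with which Clic6 passed by rho. Among 130 relations of single members with 13 lists, a family chosen after the data were seen, Clic6 and the 12 medium spiny neuron genes had r 0.62 and rho 0.55 (adjusted permutation p 2.17e-04 and 1.62e-04). Without the 2 farthest libraries the values were 0.63 and 0.57, within batch 1 they were 0.49 and 0.46, and within batch 2 they were 0.99 and 0.97. Library 16585 went the other way, with 20.4 CPM of Clic6 and 0 of 12 medium spiny neuron genes above their median. The cells that Clic6 counts came from were not tested, and the share of all genes that would pass with these lists was not computed. Against cortical genes Clic6 had r −0.42 and rho −0.31 (adjusted permutation p 2.89e-04 and 0.0188). Folr1 and the 12 ependymal genes had r 0.44 and rho 0.59 (adjusted permutation p 5.2e-04 and 1.62e-04), with 27 libraries at 0. Kl and the 7 astrocyte genes had r 0.41 and rho 0.37 (adjusted permutation p 7.09e-04 and 0.00371), and r 0.29 and rho 0.30 within batch 1.

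**Figure D5:**
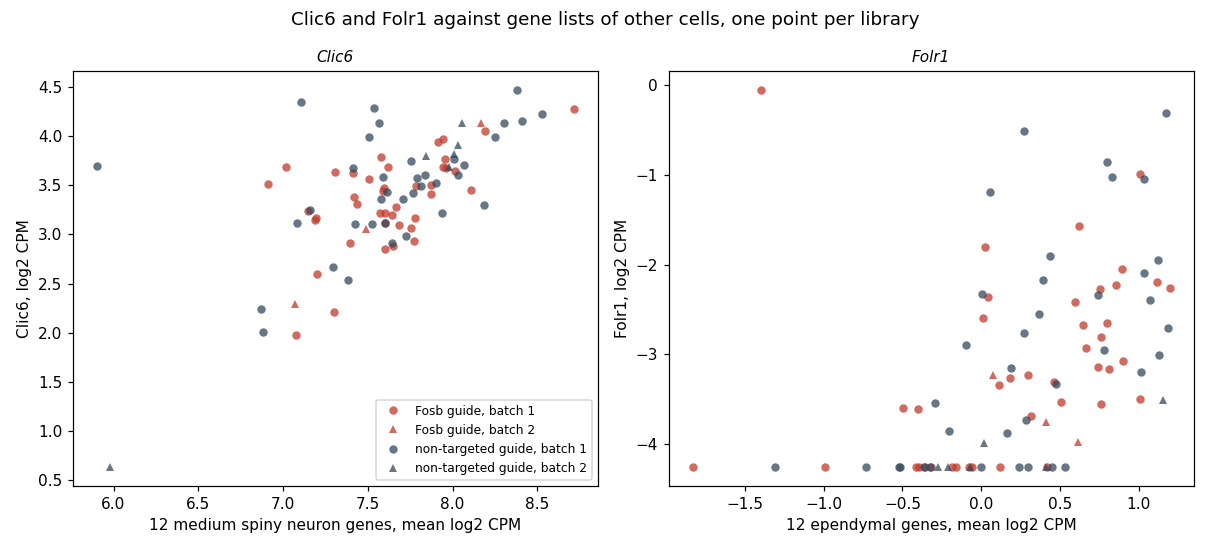
Log2 CPM of Clic6 against the mean log2 level of the medium spiny neuron genes, and of Folr1 against that of the ependymal genes, 1 point per library. Clic6 rises with the neuronal list (rho 0.55) and Folr1 with the ependymal list (rho 0.59), and the 27 libraries with no Folr1 count lie on the line at the bottom of the right panel.

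The genes most like each member were ranked by rho over 87 libraries among 13916 genes. For Clic6 they were Sema3f (rho 0.81) and Zswim5 (0.79), closer than any other member had. Slc13a4 was most like Fmod (0.75), Ogn (0.72), Mrc2 (0.68), Slc6a20a (0.67) and Ptgds (0.66). Fmod or Slc6a20a came first for Slc22a6 (0.66 for both) and Slc6a20a for Slc6a13 (0.72), while Ogn led for Myoc (0.59) and Mrc2 for Slc47a1 (0.63). Ttr had no gene above 0.46, the value of Ppa2. Folr1 was most like Cfap161 (0.69) and Cd24a (0.62), Kcnj13 like Sned1 (0.66), and Kl like Cpne2 (0.62).

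Little of the members' spread lay between groups. Group and batch means took from 8.29% (Slc13a4) to 27.4% (Kl) of the variance of log2 CPM, with 25.9% for Kcnj13 and 14.9% for Ttr, against a median of 29.7% over all genes tested. Within groups the SD of log2 CPM was 1.79 for Myoc, 1.76 for Ttr, 1.41 for Slc47a1, 1.31 for Slc22a6 and 1.23 for Slc13a4, against a median of 0.529 over all genes. Kl (0.444) was below that median and Clic6 (0.602) just above it. In edgeR's dispersion, the squared variation between libraries beyond counting error, Ttr stood at percentile 99.5 of all genes, Folr1 at 99.0 and Myoc at 98.9, while Kl stood at 60.3.

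Group medians were set in order for the members with most counts and for Myoc. They were not adjusted for sequencing batch. All libraries of batch 2 are in the M_D2 arm, so the places of its groups mix group with batch. The fitted log2 difference, batch 2 minus batch 1, was −0.59 for Kl, 0.50 for Clic6, −0.82 for Slc6a13, −0.17 for Slc13a4 and −0.10 for Myoc. Kl was highest in M_D1-D2-targeted (8.88 CPM) and F_D1-targeted (7.87) and lowest in M_D1-control (4.54) and M_D2-control (5.66), with the ranges of neighbouring groups overlapping throughout. Clic6 ran from 13.3 CPM in M_D2-control and 12.7 in F_D1-D2-control to 8.23 in M_D2-targeted. Slc6a13 ran from 3.15 CPM in F_D1-control to 1.63 in M_D2-control, and Slc13a4 from 1.75 in F_D1-control to 0.572 in M_D1-control. The groups that hold libraries 19762 and 17906 had medians of 1.42 and 0.795 CPM for Slc13a4, inside that range. Myoc had its highest medians in M_D1-D2-control (1.68 CPM) and M_D1-D2-targeted (1.25) and its lowest in F_D2-control (0.304) and M_D2-control (0.187).

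The Fosb guide was set against the control guide in each of the 6 arms with edgeR's quasi-likelihood test in a model of 12 groups and batch, and p values were adjusted over all 25420 genes. In F_D1 0 of 10 members passed an adjusted p of 0.05, against 0.00393% of all genes, with 2 at an unadjusted p under 0.05, against 4.48% of all genes. In M_D1 it was 0 of 10, against 0% of all genes, with 1 unadjusted, against 7.11%, and in F_D2 0 of 10, against 0%, with 1 unadjusted, against 1.66%. In M_D2 it was 0 of 10, against 0.0629%, with 0 unadjusted, against 2.18%. In F_D1-D2 it was 0 of 10, against 0%, with 4 unadjusted, against 3.4%, and in M_D1-D2 0 of 10, against 0.00393%, with 2 unadjusted, against 3.22%. DESeq2 and limma-voom also called 0 members in each arm.

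Fitted guide differences of Ttr and Myoc changed with single libraries left out. For Ttr in F_D1 the log2 fold change (targeted over control) was −6.01 ± 1.59 (SE; edgeR p 3.01e-04, adjusted 0.589), and without library 16585 it was −1.90. In M_D1-D2 it was −5.17 (edgeR p 0.00846), and −1.34 without library 19511. For Myoc in F_D1-D2 it was −2.52 ± 0.79 (edgeR p 0.00219, adjusted 1), and without library 19762 it was 0.07. Folr1 in M_D1-D2 had −3.03 ± 1.45 (SE; edgeR p 0.0392, adjusted 1). Its levels were 0, 0, 0 and 0.0465 CPM in targeted libraries, and 0, 0.0160, 0.0166, 0.0768, 0.0820, 0.431 (19511) and 0.501 (19220) CPM in control libraries, so the groups overlapped, and without 19511 Folr1 did not pass the filter on low counts. Every one of the 10 members had a fitted value below 0 in F_D1-D2, with a median of −0.86 against −0.00386 over all genes, and 6 of 10 did without that library.

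Slc13a4, Slc6a13 and Slc22a6 had log2 fold changes of −1.25, −0.82 and −1.54 in F_D1-D2, against 0.05, −0.04 and −0.09 without library 19762. In F_D2 Slc47a1 had −1.61, and 0.62 without library 17906. In M_D1 9 of 10 members had values above 0, with a median of 0.46 against 0.0298 over all genes. The meningeal members moved together, so counts of members in one direction, in this and other comparisons, are not counts of independent genes. Slc47a1 had 2.14 ± 1.05 in M_D1 (SE, edgeR p 0.0439, adjusted 0.686). Targeted library 18722 was the highest of its group in Slc6a13 (4.79 CPM) and Slc13a4 (3.88 CPM). Without it and 18749 the M_D1 value of Slc47a1 was 2.09 (edgeR p 0.0530). In the M_D1 arm, Slc47a1 levels were 0.138, 0.440, 0.463, 0.775, 1.63, 2.46 and 4.75 CPM in targeted libraries and 0.179, 0.257, 0.367 and 0.524 CPM in control libraries. The groups overlapped, with 4 of 7 targeted libraries above every control.

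Kl and Clic6, the members with counts enough to bound a guide difference, had small fitted differences. Over the mean of the 6 arms the log2 fold change was 0.13 ± 0.10 for Kl (SE; edgeR p 0.171, adjusted 0.636) and −0.09 ± 0.12 for Clic6 (SE; edgeR p 0.452, adjusted 0.823). Clic6 in F_D1 had −0.63 ± 0.30 (SE; edgeR p 0.0364, adjusted 1). Its levels there were 4.58, 7.59, 8.51, 10.8, 12.5 and 12.8 CPM in targeted libraries after sorting, and 10.2 to 22.2 CPM with a median of 12.6 in control libraries, so the groups overlapped. In the other 5 arms Clic6 had values from −0.22 to 0.31 and Kl from −0.13 to 0.37, each with an SE of 0.19 to 0.35.

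Slc13a4 levels show the same overlap in each arm. In F_D1 they ran from 0.677 over 1.58 to 2.47 CPM in targeted and from 0.589 over 1.75 to 3.60 CPM in control libraries. M_D1-targeted libraries ran from 0.463 over 1.20 to 3.88 CPM, and M_D1-control libraries had 0.395, 0.524, 0.620 and 2.12 CPM. In F_D2 the targeted libraries ran from 0 over 1.11 to 2.38 CPM and the control libraries from 0.521 over 0.795 to 12.3 CPM. The control range of F_D2 is wide through 17906, with 17910 next at 5.11 CPM and no other control above 1.38 CPM. F_D1-D2-targeted libraries ran from 0 over 1.18 to 4.80 CPM and F_D1-D2-control libraries from 0.672 over 1.42 to 19.1 CPM. M_D2-targeted libraries ran from 0.676 over 0.978 to 3.12 CPM and M_D2-control libraries from 0.697 over 0.969 to 2.004 CPM. M_D1-D2-targeted libraries had 0.939, 0.988, 0.990 and 5.56 CPM, and M_D1-D2-control libraries ran from 0.747 over 1.03 to 4.69 CPM.

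An exact permutation test of log2 CPM between guides, two-sided, was run for Ttr and Slc13a4 in each arm. For Ttr the difference (targeted minus control) was −1.38 in F_D1 (exact p 0.322), 0.60 in M_D1 (exact p 0.679), −0.44 in F_D2 (exact p 0.435), 0.02 in M_D2 (exact p 0.972), 0.28 in F_D1-D2 (exact p 0.720) and −0.66 in M_D1-D2 (exact p 0.755). Within batches the M_D2 difference was −0.22 (exact p 0.648). For Slc13a4 the differences ran from −0.82 in F_D1-D2 (exact p 0.297) to 0.87 in M_D1 (exact p 0.191), and none passed. Adjusted over the 6 arms, the exact p values were 0.905 to 0.972 for Ttr and 0.600 to 0.876 for Slc13a4.

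Over the mean of the 6 arms 0 of 10 members passed, against 0% of all genes, with 1 unadjusted, against 9.52%: Ttr had a log2 fold change of −1.82 ± 0.65 (SE; edgeR p 0.00618, adjusted 0.516), and −0.50 without the 4 Ttr-high libraries. In the test of whether the guide effect differed between arms 0 of 10 passed, against 0.00787%, with 2 unadjusted, against 2.23%, Ttr (edgeR p 0.00552) and Slc22a6 (p 0.0479). DESeq2 and limma-voom called 0 in these as well.

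The 12 groups differed somewhere in 2 of 10 members, against 16.4% of all genes, and DESeq2 called 2 and limma-voom 0 (shares over all genes not given here). By edgeR these were Ttr (edgeR adjusted p 2.29e-04) and Myoc (adjusted p 0.0293), the members with single libraries far above the rest. Without the 4 Ttr-high libraries the adjusted p of Ttr was 0.521, and that of Myoc was 0.125 without library 19762 and 0.0510 without the 3 libraries highest in the meningeal members. Of the further choroid plexus genes 1 of 18 passed (Prlr, adjusted p 0.0476) and of the further meningeal genes 2 of 21 (Col1a2, adjusted p 0.0322, and Lama1, adjusted p 0.0275).

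Female and male control libraries, 24 and 19, differed in 3 of 10 members by edgeR, against 28.6% of all genes, all 3 meningeal and higher in females, a direction called for 15.3% of all genes. The log2 difference, female minus male, was 2.50 ± 0.68 for Myoc (SE; edgeR adjusted p 0.00404), 1.14 ± 0.39 for Slc13a4 (adjusted p 0.0235) and 1.37 ± 0.45 for Slc22a6 (adjusted p 0.0161). All 10 members had fitted values above 0, which for Kcnj13 was 0.06, and 7 of 21 further meningeal genes passed, all higher, with a median over the 21 of 0.58 against 0.00 over all genes. DESeq2 called 3 members and limma-voom 0 (shares over all genes not given here). Of other lists, 4 of 8 pericyte and smooth muscle genes passed (median 0.40), 4 of 12 medium spiny neuron genes (median 0.38, 12 of 12 above 0) and 2 of 7 astrocyte genes (median 0.36, 7 of 7 above 0), all higher in females. Their part in the members' difference was not tested. In single libraries the sexes overlapped broadly. Median levels were 0.572 CPM in females and 0.543 CPM in males for Myoc, 1.45 and 1.02 CPM for Slc13a4, and 0.589 and 0.425 CPM for Slc22a6.

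The 3 libraries highest in the meningeal members are female controls. Without 19762 alone 2 of 10 members passed, against 29.2% of all genes, and Slc13a4 (edgeR adjusted p 0.119) and Slc22a6 (adjusted p 0.0838) did not. Without 17906 alone 3 of 10 passed, against 29.0% of all genes. Slc22a6 and Myoc were among these, and Slc13a4 was not (edgeR adjusted p 0.0815). Without all 3 the log2 difference was 0.48 for Myoc (edgeR adjusted p 0.534), 0.10 for Slc13a4 and 0.18 for Slc22a6, and 1 of 10 members passed, Clic6 at 0.50 (adjusted p 0.0415), against 27.3% of all genes. The 3 were chosen for high levels of the meningeal members and are all female, so a smaller difference without them was built in. Male controls high in these genes were kept. A permutation test of log2 CPM over all controls gave a difference of 0.82 for Myoc (p 0.181), 0.55 for Slc13a4 (p 0.115) and 0.74 for Slc22a6 (p 0.0539), unadjusted. All 24 female controls are of batch 1, while 6 of the 19 male controls are of batch 2, so that test mixes sex with batch. In batch 1 alone it gave 0.22 for Myoc (permutation p 0.748), 0.48 for Slc13a4 (p 0.256) and 0.71 for Slc22a6 (p 0.128). For Kcnj13 the sign was the opposite of edgeR's, at −0.60 over all controls (permutation p 0.0410) and −0.26 in batch 1 (p 0.421). The summed level of the 5 meningeal members was 2.88 to 93.7 CPM with a median of 6.15 in female controls, and 2.47 to 15.9 CPM with a median of 4.14 in male controls. That of the 21 further meningeal genes was 65.4 to 345 CPM with a median of 110 in females and 67.9 to 116 CPM with a median of 93.0 in males, none of them at 0 throughout. Cortical genes summed to 71.6 to 892 CPM (median 125) in females and 71.4 to 1136 CPM (median 133) in males.

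Between D2 and D1 female controls 0 of 10 members passed, against 0.0197% of all genes, with 1 unadjusted, against 3.91%. This was Ttr, with a log2 difference of −5.10 ± 1.2698 (SE; edgeR p 1.36e-04, adjusted 0.347), and −1.01 without the 4 Ttr-high libraries. Between sequencing batch 2 and batch 1 of the M_D2 arm 3 of 10 passed, against 62.3% of all genes. Kcnj13 was higher in batch 2 by 1.08 ± 0.46 (edgeR adjusted p 0.0357), while Kl fell by 0.59 ± 0.24 (adjusted p 0.0258) and Slc6a13 by 0.82 ± 0.36 (adjusted p 0.0430). Without M_D2-control library 18386 none of these passed, with edgeR adjusted p of 0.0529 for Kcnj13, 0.0702 for Kl and 0.402 for Slc6a13. The share of all genes in that fit is not given here.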

How the data were processed

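Reads per gene were deposited as whole counts without normalization. Per the submitters' processing notes, Trim Galore, HISAT2, SAMtools, Subread's featureCounts and DESeq2 1.27 were used with mm10; no source used here gives the annotation or strand setting. Per the labels, libraries were stranded and depleted of ribosomal RNA. Of 88 labelled libraries 87 matched a column, and 1 further column had no label and was not used. The labels do not name the animal behind each library, so p values measure the spread between libraries.

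The 10 members and all gene lists were chosen with earlier results of these data known. The model was edgeR 4.0.16 in R 4.3.3, by the robust quasi-likelihood test with TMM scaling, filterByExpr, 12 groups and sequencing batch, adjusted by Benjamini and Hochberg over 25420 genes at 0.05, and was tested on simulated data. Log2 CPM used a prior count of 2. Correlations and permutation tests used scipy 1.17.1 and numpy 2.4.6. The limit beside a level of 0 is 3 counts and covers counting error only. Positions are GENCODE's on mm10 and promoters RefSeq's. Named genes were the members, list genes that passed or were most abundant, and the genes most like each member; other list genes given with levels were chosen after their values were seen.

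Alternatives were DESeq2 1.42.0 and its size factors, limma 3.58.1 voom with weights, no filter, no batch term, batch 1 alone, another prior count, CPM of total counts, and single libraries left out. Added after seeing the data were fits without the 4 Ttr-high, the 3 meningeal-high and the 2 closest libraries, and rho over pairs without Ttr. The Ttr-high and meningeal-high libraries were chosen from the members' own levels. A change in the differences of those members without them was therefore built in.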

Additional observations from a re-analysis of the deposited data

Results flagged for a closer look

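In groups of 4 to 10 libraries, each end library's gap to its nearest neighbour was set against the group's range (Dixon's 95% criterion). A library with an unusual share was found in 24 of 110 combinations of gene and group. About 5.5 would be flagged for normal, independent values. Levels at 0 and genes that move together depart from that, so the count cannot be compared with chance. For Ttr the flagged libraries were F_D1-D2-control 19750 at 5.41 CPM and M_D1-targeted 18130 at 4.10 CPM. For Folr1 they were F_D2-targeted 18432 at 0.914 CPM, M_D1-D2-targeted 18749 at 0.0465 CPM and M_D2-control 18386 at 0.118 CPM, which rest on 1, 2 and 4 counts. For Kcnj13 they were F_D1-D2-control 19762 at 1.64 CPM and F_D2-control 17906 at 1.44 CPM. Low libraries were M_D2-control 3631, at 1.22 CPM of Kl and 1.496 CPM of Clic6, and M_D1-targeted 18368, at 3.87 CPM of Clic6.

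Among the meningeal members, F_D1-D2-control 19762 stood apart at 19.1 CPM of Slc13a4, 16.7 of Slc6a13 and 10.1 of Slc22a6, and F_D2-control 17906 at 11.5 CPM of Slc47a1. M_D1-D2-targeted 18749 had 5.56 CPM of Slc13a4 and 6.30 of Slc6a13, M_D1-targeted 18722 had 4.79 of Slc6a13, and M_D2-control 18386 had 2.004 of Slc13a4 and 5.25 of Slc6a13. For Slc47a1 M_D1-D2-control 19220 had 3.82 CPM and M_D2-targeted 18718 had 3.55 CPM. A level of 0 was counted in the concentrated libraries 18432 (Slc13a4 and Slc47a1) and 17907 (Slc6a13). Groups of over 10 libraries were not examined this way.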

How the results depend on the processing

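Of 57 results under 35 settings, 875 alternative values were computed, and 18 changed sign. No guide comparison gained a member that passed in any setting run. The cause of the changes below was not tested beyond the libraries left out. Members that differed among the groups numbered 1 (not 2) with no low-count filter, without the 4 Ttr-high libraries and without the 3 meningeal-high libraries, and 0 with limma-voom, and 1 to 2 with single libraries left out. Of all genes, 14.1% passed without the 4 Ttr-high libraries and 18.9% without the 3 meningeal-high libraries. Female minus male calls (3) became 5 with no batch term, 0 with limma-voom, 1 without the 3 meningeal-high libraries and 2 to 4 with single libraries left out. Batch calls (3) became 1 with no low-count filter and 0 to 3 with single libraries left out. Where no share over all genes is given, whether the members or all genes moved with the setting was not tested.

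For Slc47a1 in F_D2 (−1.61) the log2 fold change was 0.47 with limma-voom, 0.62 without 17906 and 0.76 without the 3 meningeal-high libraries. In F_D1-D2 it was 0.072 for Myoc without 19762 and 0.071 without the 3, and 0.055 for Slc13a4 in both cases, and Slc6a13 in female minus male controls was −0.014 without the 3. Single libraries left out gave −1.75 to 0.62, −2.68 to 0.072 and −1.35 to 0.055 for the first 3 of these. For Ttr by permutation, the M_D1 difference was −0.10 and the M_D1-D2 difference 0.35 without the 4 Ttr-high libraries. The M_D2 difference was −0.20 with a prior count of 0.5, −6.85e-04 as CPM of total counts and −0.22 within batches, and the F_D1-D2 difference −0.10 as CPM of total counts. For Slc13a4 the F_D2 difference was 0.070 without the 4 concentrated libraries and 0.23 without the 3 meningeal-high ones, and the M_D1-D2 difference −0.64 as CPM of total counts and −0.53 to 0.30 with single libraries left out.

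Depth limits Ttr and Folr1, with a median of 2 counts each, most. No paired analysis was possible because library numbers are unique and shared by no groups.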

Other observations

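Levels of both sets of members also went with lists of other tissue. The choroid plexus mean had r 0.49 and rho 0.45 with 10 genes of septum and pallidum (adjusted permutation p 2e-04 and 3e-04), with r 0.49 in batch 1 and 0.08 in batch 2. The meningeal mean had r 0.35 and rho 0.41 with the same list (adjusted permutation p 0.0084 and 6.75e-04), with r 0.35 in batch 1 and 0.22 in batch 2, and r 0.31 and rho 0.31 with 5 erythrocyte genes (adjusted permutation p 0.016 for both). Against the medium spiny neuron genes the meningeal mean had r 0.01 and rho 0.07, neither of which passed. With total counts rho was 0.08 for the choroid plexus mean and -0.08 for the meningeal mean. With the share of counts in the 10 most abundant genes, the meningeal mean had r −0.29 and rho 0.04 (adjusted permutation p 0.0271 and 0.743). The choroid plexus mean had r −0.06 and rho 0.21 with that share, neither of which passed. With pericyte and smooth muscle genes r was 0.33 for the meningeal and 0.32 for the choroid plexus mean (adjusted permutation p 0.0128 and 0.0163). Not all relations that passed are given here.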
